A study of Mus musculus with 8 samples.

Results

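The BCL2 family decides whether the mitochondrial outer membrane of a cell stays closed. Transcripts of 8 of its members were followed here in mouse CD4 T cells that were cultured toward Th17 or Th22, with or without Gpr65, a receptor that senses extracellular protons. The members were taken by name from the deposited matrix: Bcl2, Bcl2l1, Mcl1, Bcl2a1b, Bcl2a1d, Bax, Bcl2l11 and Bbc3. All 8 were found among its 16649 genes, and all 8 passed the filter on low counts that left 13412 genes for testing.

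In this family, the guardians BCL2, BCL-XL (gene Bcl2l1), MCL1 and A1 (genes Bcl2a1a to Bcl2a1d) bind and hold their relatives. BAX is an effector that forms pores in the mitochondrial membrane, which releases cytochrome c and starts the caspases. The BH3-only proteins BIM (gene Bcl2l11) and PUMA (gene Bbc3) are the alarm arm: they occupy the guardians and activate the effectors. In T cells, BCL2 is known for the survival of resting cells under IL-7, BCL-XL and A1 for induction after antigen receptor and NF-kB signals, MCL1 for its short protein half-life, and BIM for ending the life of activated cells.

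The cells were splenic CD4 T cells of 10-week-old female mice, either WT or KO for Gpr65. They were harvested at day 3, and the 4 groups (KO Th17, KO Th22, WT Th17, WT Th22) had 2 libraries each. IL-1b and IL-23 were at 20 ng/ml in both mixes. IL-6 was at 25 ng/ml in the Th17 mix and at 40 ng/ml in the Th22 mix, which alone also held 400 nM FICZ, an agonist for the transcription factor AHR. The sources used here do not say how the Gpr65 allele was made, in which cells it is lost, or whether libraries came from separate animals, so a p-value reflects only how far these libraries lie apart, and that distance may be technical.

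The libraries held 9969 to 15119 kept cells and 33826527 to 58895019 UMIs (unique transcript tags), with a median of 2354 to 4142 UMIs per cell. The median was 2430 and 2354 in KO Th17 and 4142 and 3669.5 in KO Th22 (replicates 1 and 2). It was 2489 and 3847 in WT Th17 and 2627 and 3679 in WT Th22. Depth thus ran with the culture in KO, where a difference between Th22 and Th17 cannot be told apart from it by these libraries. Levels are CPM, the summed UMIs of a gene in a library brought to a common library total and scaled by TMM. They are 3' tags, so they are compared across samples and not between genes. Gpr65 was at 0.887 to 1.58 CPM in the KO libraries and 50.6 to 72.9 CPM in the WT libraries, so all 8 matched their label. Cd4 was at 84.9 to 103 CPM in KO and 114 to 124 CPM in WT, and the CD8 T cell markers summed to 10.2 to 13.98 CPM over the 8 libraries. Unlike the levels of single genes, the sums of cell type markers in this paragraph are CPM of the library total without TMM. Of the lists for other cells, B cell markers summed to 28.2 to 33.3 CPM in KO and 35.8 to 48.5 CPM in WT, of which Ighm made up 96.1% of the UMIs. Monocyte and macrophage markers summed to 23.0 to 33.1 CPM in KO and 21.2 to 28.1 CPM in WT, neutrophil markers to 5.53 to 16.1 and 11.2 to 12.9 CPM, dendritic cell markers to 0.391 to 0.974 and 0.591 to 0.758 CPM, and none of the 4 mast cell and basophil markers was among the genes of the matrix. Stromal and endothelial markers summed to 8.83 to 14.1 CPM in KO and 15.9 to 17.6 CPM in WT, with no overlap, and Pecam1 made up 99.0% of their UMIs. The T cell markers, at 3216 to 3981 CPM in KO and 3919 to 4827 CPM in WT, were also mostly lower in KO. NK and gamma-delta T cell markers summed to 37.5 and 16.1 CPM in KO Th17 (replicates 1 and 2), 40.1 and 19.5 in KO Th22, 18.8 and 29.96 in WT Th17 and 20.2 and 32.4 in WT Th22. Both KO cultures differed between replicate 1 and replicate 2 in several members, as the values below show, and the NK and gamma-delta markers were split by replicate too. The part of these markers in the results was not tested, other than by the fits without cells holding a marker of another cell type. Those fits left out cells with a B cell, monocyte and macrophage, neutrophil or dendritic cell marker. They kept cells with NK, gamma-delta, CD8, stromal or endothelial markers, so they do not address the split of the NK and gamma-delta markers. At most 80 cell barcodes were shared by any pair of libraries.

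The A1 genes are near-copies of each other, and their start regions are printed because Bcl2a1b and Bcl2a1d moved together. Bcl2a1b (ENSMUSG00000089929) lies on the plus strand at chr9:89199209-89207827 and Bcl2a1d (ENSMUSG00000099974) on the minus strand at chr9:88723285-88731914, in GENCODE M21 on GRCm38 (mm10). The sequences below are RefSeq promoter windows on GRCm38.p6, from 250 bases before to 50 after the annotated start, written 5′ to 3′ on the gene's strand. The Bcl2a1b window is chr9:89199023-89199322 (plus strand) and the Bcl2a1d window is chr9:88731801-88732100 (minus strand). Capitals mark TGATGNAA, the core of the element bound by pairs of C/EBP and ATF factors.
Bcl2a1b: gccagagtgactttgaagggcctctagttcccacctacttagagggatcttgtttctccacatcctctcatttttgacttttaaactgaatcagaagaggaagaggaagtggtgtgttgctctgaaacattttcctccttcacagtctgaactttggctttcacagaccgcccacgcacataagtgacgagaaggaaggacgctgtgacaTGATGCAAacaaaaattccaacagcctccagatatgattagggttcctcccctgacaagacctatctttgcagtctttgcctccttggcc
Bcl2a1d: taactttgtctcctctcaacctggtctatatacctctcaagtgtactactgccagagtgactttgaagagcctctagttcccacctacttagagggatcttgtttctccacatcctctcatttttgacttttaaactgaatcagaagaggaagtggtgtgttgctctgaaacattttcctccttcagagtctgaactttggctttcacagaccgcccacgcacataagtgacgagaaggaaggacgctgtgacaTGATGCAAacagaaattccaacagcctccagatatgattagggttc
The windows aligned over 256 bases, with 247 matches, 3 mismatches and 6 gap bases (96.5% identity). The annotated starts are offset, so the first base of the marked letters falls at -40 from the start in Bcl2a1b and at 4 in Bcl2a1d. TGATGNAA, searched on both strands, was in 3.97% of 32851 promoter windows and in no window of the other 6 members. The letters TGTTTAC, which FOXO factors bind, were in 3.65% of windows, among them 1 window each of Bcl2l11 and Bbc3. TTCNNNGAA, the STAT core, was in 8.30% of windows and in none of the members. An NF-kB consensus was in 4.51% of windows, once in a Bcl2l1 window and 2 times in a Bbc3 window. The motifs were chosen after the sequences were seen. A match says only that the letters are there.

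Near-identity also limits what a 3' tag can tell. The last 300 bases of the Bcl2a1b and Bcl2a1d transcripts aligned over 298 bases with 2 mismatches, and those of Bcl2a1a and Bcl2a1d over 300 bases with 2 mismatches. Bcl2a1a is not among the symbols of the matrix, and Bcl2a1c had 4 UMIs in 1 library and none in the others. The split of reads between the A1 genes is therefore uncertain, and the pair is reported side by side. Bcl2a1b also overlaps the gene model Gm29094 on its strand and Bax overlaps Gm45808. Neither model is a row of the matrix.

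The first comparison asked which members differed between KO and WT cells. The members were chosen with earlier results of these data known, among them the rise of Bcl2a1b in the KO. Its call here is therefore not an independent finding. A1 transcripts were higher in the KO in both cultures, and BCL-XL transcripts were higher by a smaller amount. Transcripts of BIM, the partner on the death side, were lower in the KO with wide spread between replicates and did not pass over all cells. Over both polarizations 3 of 8 members passed (edgeR quasi-likelihood test, Benjamini-Hochberg adjusted p under 0.05), all higher in the KO, where 2.93% of all genes tested passed in either direction.

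**Figure D1:**
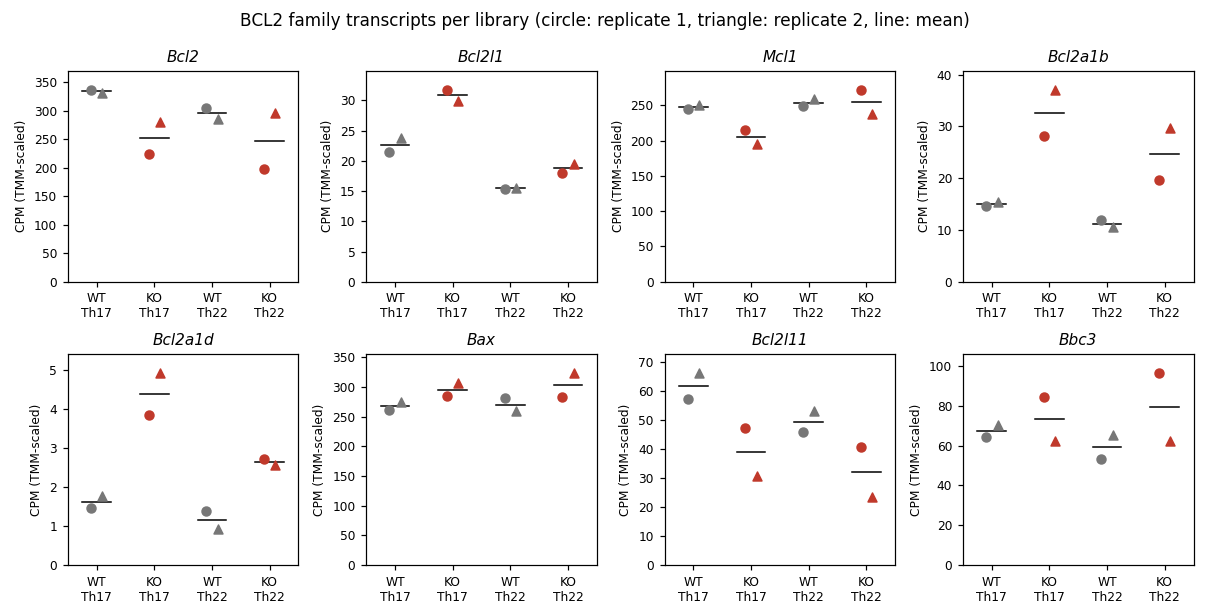
Level of each member in CPM (TMM-scaled, linear axis from 0) in the 4 groups. Each symbol is 1 library (circles replicate 1, triangles replicate 2; grey WT, red KO) and each line the mean of 2. The KO libraries of Bcl2a1b sit between 19.6 and 37.0 CPM, all above the WT libraries, and the replicates of KO lie apart for Bcl2, Bcl2l11 and Bbc3.

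Among the guardians, Bcl2a1b had 28.2 and 37.0 CPM in KO Th17, 19.6 and 29.6 in KO Th22, 14.6 and 15.4 in WT Th17, and 11.8 and 10.6 in WT Th22 (replicates 1 and 2). Every KO library was above every WT library. The KO mean was 28.6 ± 7.16 CPM and the WT mean 13.1 ± 2.26 CPM (SD, n = 4 each). The edgeR fit gave a log2 fold change of 1.13 with an SE of 0.14 and an adjusted p of 0.0075; all later ± values of fold changes are SE too. Within Th17 it was 1.12 ± 0.21 (edgeR adjusted p = 0.11) and within Th22 1.13 ± 0.21 (edgeR adjusted p = 0.15).

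Bcl2a1d, to which fewer UMIs were assigned than to Bcl2a1b, had 3.83 and 4.91 CPM in KO Th17 and 2.73 and 2.55 in KO Th22. It had 1.45 and 1.77 CPM in WT Th17, and 1.38 and 0.912 in WT Th22. Again no KO library overlapped a WT library. The log2 fold change was 1.32 ± 0.17 (edgeR adjusted p = 0.0075), with 1.44 ± 0.24 in Th17 (edgeR adjusted p = 0.088) and 1.20 ± 0.25 in Th22 (edgeR adjusted p = 0.18). These values rest on 43 to 193 UMIs per library. The number of Bcl2a1b UMIs per Bcl2a1d UMI was 7.36 and 7.54 for KO Th17 and 7.17 and 11.6 for KO Th22. It was 10.0 and 8.74 for WT Th17 and 8.57 and 11.7 for WT Th22.

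Bcl2l1 (chr2:152780668-152831728, minus strand), the BCL-XL gene, had 31.7 and 29.9 CPM in KO Th17 against 21.5 and 23.8 in WT Th17. In Th22 it had 18.0 and 19.5 CPM in KO against 15.4 and 15.6 in WT. KO libraries were above WT libraries within each culture, while KO Th22 lay below WT Th17. Pooled, the KO to WT difference was 0.36 ± 0.08 on the log2 scale (edgeR adjusted p = 0.043), near the threshold, with 0.45 ± 0.11 in Th17 and 0.28 ± 0.11 in Th22 (edgeR adjusted p = 0.18 and 0.36). With the replicate number as a block the adjusted p of Bcl2l1 was 0.063, without cells holding a marker of another cell type it was 0.069, and it passed in 1 of the 8 fits that left out a library, that without KO Th22 replicate 1, with 0.080 to 0.17 in the other 7.

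Bcl2 (chr1:106538178-106714274, minus strand) had 225 and 280 CPM in KO Th17, 198 and 297 in KO Th22, 337 and 332 in WT Th17, and 305 and 286 in WT Th22. KO replicate 1 was the lowest library of its culture, and KO Th22 replicate 2 lay within the WT Th22 libraries. The log2 fold change was -0.33 ± 0.13 and did not pass (edgeR adjusted p = 0.20). Mcl1 (chr3:95658788-95663176, plus strand) had 215 and 195 CPM in KO Th17 against 245 and 251 in WT Th17, and 272 and 237 in KO Th22 against 248 and 259 in WT Th22. Its KO libraries were below WT in Th17 and on both sides of WT in Th22, with -0.13 ± 0.08 over both (edgeR adjusted p = 0.42).

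The effector Bax (chr7:45461697-45466898, minus strand) had 284 and 307 CPM in KO Th17, 284 and 323 in KO Th22, 262 and 275 in WT Th17, and 281 and 260 in WT Th22. The 4 KO libraries were above the 4 WT libraries by a small margin, and the log2 fold change of 0.15 ± 0.07 did not pass (edgeR adjusted p = 0.27).

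Of the BH3-only genes, Bcl2l11 (chr2:128126038-128162547, plus strand) had 47.2 and 30.7 CPM in KO Th17 against 57.1 and 66.0 in WT Th17, and 40.6 and 23.4 in KO Th22 against 45.7 and 52.9 in WT Th22. Each KO library was below both WT libraries of its culture, and KO replicate 1 was near WT in Th22. The KO mean was 35.5 ± 10.5 CPM and the WT mean 55.4 ± 8.47 (SD, n = 4 each), and the log2 fold change was -0.64 ± 0.18 (edgeR adjusted p = 0.10). Within Th17 it was -0.66 ± 0.28 and within Th22 -0.62 ± 0.28. DESeq2 gave an adjusted p of 0.018 for the same contrast of Bcl2l11, and edgeR gave 0.029 without KO Th22 replicate 1.

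Bbc3 (chr7:16308393-16318205, plus strand), the PUMA gene, had 84.5 and 62.2 CPM in KO Th17, 96.5 and 62.4 in KO Th22, 64.3 and 70.2 in WT Th17, and 53.5 and 65.3 in WT Th22. In both cultures KO replicate 1 was the highest library and KO replicate 2 lay among or just below WT. The log2 fold change was 0.27 ± 0.16 (edgeR adjusted p = 0.39). In both KO cultures the NK and gamma-delta markers were also higher in replicate 1, in which Bbc3 and Bcl2l11 were higher and Bcl2 lower than in replicate 2, and their part in these splits was not tested.

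Within Th17 alone 0 of 8 members passed by edgeR, where 0.186% of genes did. Of these members 5 had an unadjusted p under 0.05, as did 1632 of 13412 genes, and DESeq2 called 2, Bcl2a1b and Bcl2a1d. Within Th22 alone 0 of 8 passed, where 0.149% of genes did. There 3 members had an unadjusted p under 0.05, as did 1569 of 13412 genes, and DESeq2 called the same pair. Counts of DESeq2 calls, here and later, are given without the share of all genes that DESeq2 called. Neither genotype effect was shown to differ between the cultures: the interaction of genotype and polarization passed for 0 of 8 members by edgeR (0.0% of genes tested), for 0 at an unadjusted p under 0.05 and for 0 by DESeq2. When libraries of the same genotype and number were summed across the cultures, leaving 2 sums against 2, 0 of 8 members passed, with Bcl2a1b at an adjusted p of 0.24 and a log2 fold change of 1.13. The share of all genes that passed is not given for this fit or the next one, so their counts are not read as results about the members. Without WT Th22 replicate 2, 1 member passed and Bcl2a1b was at an adjusted p of 0.051. Without the cells that held a marker of another cell type, the log2 fold change of Bcl2a1b was 1.15 (edgeR adjusted p = 0.0100).

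**Figure D2:**
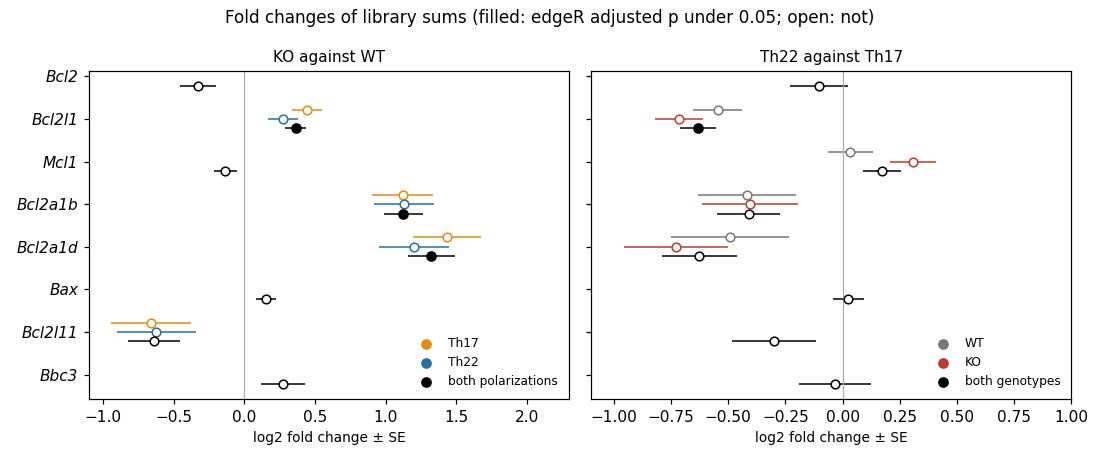
Log2 fold change ± SE (edgeR) of KO over WT (left) and Th22 over Th17 (right). Black symbols pool both cultures or both genotypes for all 8 members, and coloured symbols give the values within 1 culture or genotype for the members whose values the text states. Filled symbols passed at an adjusted p under 0.05: Bcl2l1, Bcl2a1b and Bcl2a1d on the left and Bcl2l1 on the right.

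Few cells carried an A1 tag. In cells thinned to 1500 UMIs, 3.999% and 5.42% of KO Th17 cells, 2.88% and 3.65% of KO Th22 cells, 2.03% and 2.09% of WT Th17 cells, and 1.72% and 1.52% of WT Th22 cells had a Bcl2a1b UMI. The lowest KO share, with an exact binomial 95% interval of 2.57% to 3.22%, was above the highest WT share, with 1.82% to 2.40%. These intervals cover counting error only, and the share in a cell type that lacks the gene was not measured. Before thinning the shares were 7.26% to 9.002% in KO and 3.32% to 5.78% in WT. Of the thinned KO cells with a Bcl2a1d UMI, 29 of 224 (12.9%) also had a Bcl2a1b UMI, against 3.97% of the other KO cells. In WT it was 5 of 87 cells (5.75%), against 1.82% of the others. These 5 cells were all in WT Th22, with 3 of 33 and 2 of 13, while WT Th17 had 0 of 15 and 0 of 26. The shares pool cells of several libraries and were not tested, and the split of reads between the A1 genes is uncertain. For Bcl2l11 the thinned shares were 7.37% and 4.72% in KO Th17, 6.23% and 3.45% in KO Th22, 8.69% and 9.71% in WT Th17, and 6.37% and 7.91% in WT Th22. Its KO shares were below WT within each culture, by little for KO Th22 replicate 1.

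The second comparison asked what the Th22 mix with FICZ changed relative to the Th17 mix. BCL-XL transcripts were lower in Th22 in both genotypes. Over both genotypes Bcl2l1 was the 1 member of 8 that passed, where 1.94% of genes did. Its libraries ran from 15.4 to 19.5 CPM in Th22 and from 21.5 to 31.7 in Th17 and did not overlap. The mean was 17.1 ± 1.98 CPM in Th22 and 26.7 ± 4.89 in Th17 (SD, n = 4 each), and the fold change was -0.63 ± 0.08 (log2) (edgeR adjusted p = 0.0054). It was -0.55 ± 0.11 in WT and -0.72 ± 0.11 in KO (edgeR adjusted p = 0.15 and 0.077). The pooled call was kept in all 22 alternatives, with adjusted p up to 0.036.

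The A1 pair was lower in Th22 than in Th17 without passing in the unblocked fit. Bcl2a1b had -0.41 ± 0.14 (edgeR adjusted p = 0.21) and Bcl2a1d -0.63 ± 0.17 (edgeR adjusted p = 0.11). Bcl2l11 had -0.30 ± 0.18, Mcl1 0.17 ± 0.08, Bcl2 -0.10 ± 0.13, Bax 0.02 ± 0.07 and Bbc3 -0.03 ± 0.16, and none of these 5 passed. The signs of Bax and Bbc3 turned in some alternatives.

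Libraries of 1 genotype with the same number deviated together, so the contrast was also fitted with genotype and number as a block. In that fit 4 of 8 members passed over both genotypes, where 11.9% of genes did. Bcl2a1b fell by 0.42 on the log2 scale (edgeR adjusted p = 0.0023), Bcl2a1d by 0.64 (0.022), Bcl2l11 by 0.31 (0.0036) and Bcl2l1 by 0.63 (2.3e-04). Within WT 0 of 8 passed in the unblocked fit (0.149% of genes) and 3 in the blocked fit (12.9% of genes). Unblocked, 1 member had an unadjusted p under 0.05, as did 1183 of 13412 genes, and DESeq2 called 1. Within KO 0 of 8 passed unblocked (0.119% of genes). There 3 members had an unadjusted p under 0.05, as did 1451 of 13412 genes, and DESeq2 called 1. In the blocked fit within KO 5 passed (16.9% of genes). Mcl1 was among those 5, at 205 ± 14.3 CPM in KO Th17 and 254 ± 24.5 in KO Th22 (SD, n = 2 each), a blocked log2 fold change of 0.31 (edgeR adjusted p = 0.0039). In WT it stood at 248 ± 4.23 and 254 ± 7.28 CPM. Unblocked, the Mcl1 difference was 0.31 ± 0.10 in KO (edgeR adjusted p = 0.31) and 0.03 ± 0.10 in WT (0.98), and neither passed. The interaction for Mcl1, 0.27 ± 0.14, did not pass either, so a difference between the genotypes was not shown.

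The cells were also divided by the 12 clusters in the authors' deposited annotation, called here by number. Cluster 0, with 39805 kept cells, was led by Atp6v0d2, Klf2 and Vps37b. Cluster 1 (29365 cells) was led by Hivep3, Dusp2 and Egln3, cluster 2 (9869 cells) by Il17a, Il17f and Il22, cluster 4 (2407 cells) by Cstdc4, Csta2 and Gap43, and cluster 6 (2345 cells) by Serpine2, Crip2 and Cox6b2. Leading genes were those with the largest ratio to the mean of the other clusters among genes at 50 CPM or more there, a rule set after the data were seen. Differences between clusters are descriptions, because the clusters were made from the same cells and genes.

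**Figure D3:**
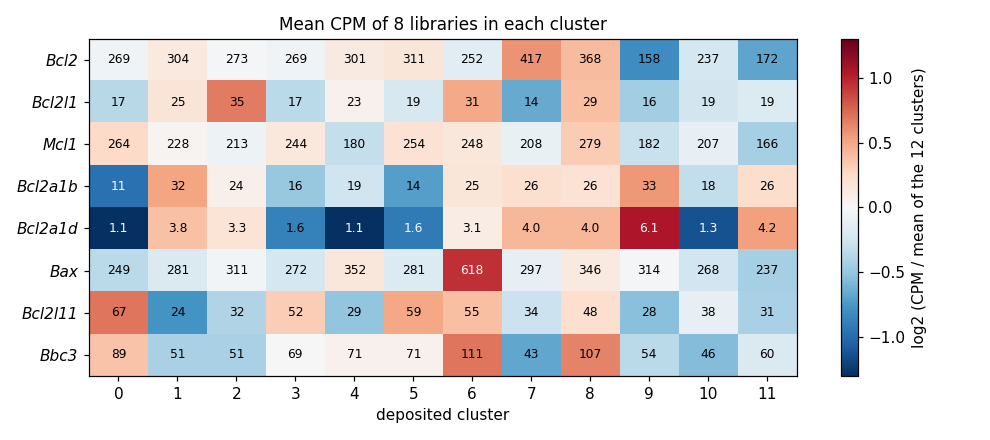
Mean CPM over 8 libraries of each member in each deposited cluster (numbers), coloured by the log2 ratio to that gene's mean over the 12 clusters. Bcl2l11 is highest in cluster 0 and lowest in cluster 1, where Bcl2a1b is second highest, and Bax is highest in cluster 6.

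Bcl2a1b and Bcl2l11 stood at opposite ends of the largest clusters. Bcl2a1b was lowest in cluster 0, at 11.4 ± 4.56 CPM of that cluster's UMIs (SD, n = 8), and stood at 32.1 ± 14.4 in cluster 1. The highest mean was 33.0 ± 11.9 in cluster 9, which held 50 Bcl2a1b UMIs in all and did not differ from cluster 1 beyond their spread. Bcl2l11 was highest in cluster 0, at 67.2 ± 20.1 CPM, followed by cluster 5 (58.7 ± 18.9) and cluster 6 (54.5 ± 16.1) within its spread, and lowest in cluster 1, at 24.3 ± 9.59. Bcl2a1d, with 8 UMIs in cluster 9 and 7 in cluster 11, was at 1.13 ± 0.74 CPM in cluster 0 and 3.84 ± 2.45 in cluster 1.

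Bax stood out in cluster 6, at 618 ± 51.2 CPM, against 352 ± 28.3 in cluster 4, the next. The 8 libraries ran from 549 to 689 CPM in cluster 6, and the highest library of cluster 4 had 404 CPM. Bbc3, whose product also works on the death side, was highest in cluster 6 too (111 ± 22.9 CPM), next to cluster 8 (107 ± 48.3) and lowest in cluster 7 (42.9 ± 12.7). Bcl2 was highest in cluster 7, which was led by the gamma-delta receptor genes Trgv2, Trdc and Tcrg-C4, at 417 ± 69.9 CPM, and lowest in cluster 9 (158 ± 71.0). Bcl2l1 was highest in cluster 2, the Il17a cluster (35.0 ± 12.01 CPM), within the spread of cluster 6 (30.8 ± 11.8), and lowest in cluster 7 (13.9 ± 6.22). Mcl1 varied least in ratio, from 166 ± 39.3 CPM in cluster 11 to 279 ± 33.4 in cluster 8, which was led by Ccl5, Isg15 and Ifit1.

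Within clusters, KO and WT were compared over both polarizations in library sums of each cluster. In cluster 1, 6 of 8 members passed, where 7.43% of 11386 genes did. A1 and BCL-XL transcripts rose there, and BIM, BCL2 and MCL1 transcripts fell. Bcl2l11 had 17.1, 14.9, 19.5 and 11.9 CPM in the KO libraries (Th17, then Th22) and 32.3, 38.1, 28.7 and 31.6 CPM in the WT libraries. No library overlapped, unlike over all cells in which Bcl2l11 did not pass. Its log2 fold change in cluster 1 was -1.05 ± 0.12 (edgeR adjusted p = 3.0e-04).

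Bcl2a1b in cluster 1 had 47.0, 54.0, 33.6 and 42.3 CPM in KO and 23.5, 23.7, 16.2 and 16.6 CPM in WT. Each KO library was above all WT libraries, and the log2 fold change was 1.18 ± 0.12 (edgeR adjusted p = 1.1e-04). Bcl2a1d rose by 1.47 ± 0.19 (edgeR adjusted p = 7.0e-04). These fits take all 8 libraries as independent, although same-numbered libraries of a genotype moved together. When the libraries of 1 genotype and number were summed within each cluster, 2 sums against 2, a fit added after the cluster results were seen, 5 of the 11 member calls over all clusters were left. In cluster 1 these were Bcl2a1b, Bcl2a1d and Bcl2l11 (edgeR adjusted p = 0.0028, 0.0084 and 0.0064), where 196 of 12042 genes passed, and these calls were kept in all 13 alternatives run for clusters. The other calls left with summed libraries were 1 in cluster 2, where 33 of 11171 genes passed, and 1 in cluster 4, where 28 of 8498 did. Over all cells, summed libraries gave no member call, and the share of all genes called there is not given. In the fit of all 8 libraries in cluster 1, Bcl2 fell by 0.44 ± 0.10 (edgeR adjusted p = 0.019), Mcl1 by 0.24 ± 0.07 (0.046), and Bcl2l1 rose by 0.36 ± 0.09 (0.035). Leaving out 1 library at a time kept these in 4, 2 and 1 of 8 fits. The fits that kept Bcl2 were without KO Th17 replicate 2, either KO Th22 library or WT Th22 replicate 1 (up to 0.069 in the others). Those for Mcl1 were without KO Th22 replicate 1 or WT Th22 replicate 1 (up to 0.13), and that for Bcl2l1 was without KO Th22 replicate 1 (up to 0.14). With the replicate number as a block Mcl1 was at an adjusted p of 0.058 in cluster 1. With summed libraries Bcl2, Mcl1 and Bcl2l1 were at 0.13, 0.24 and 0.17.

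In cluster 2, 3 of 8 members passed, where 2.4% of 10509 genes did. Bcl2a1b rose by 1.14 ± 0.15 (edgeR adjusted p = 8.9e-04), and Bcl2l11 and Bcl2 fell by 0.97 ± 0.19 and 0.43 ± 0.09 (0.020 and 0.022). Here the Bcl2a1b call was kept in 8 of 8 fits that left out a library and with summed libraries (0.032), where Bcl2l11 and Bcl2 were at 0.15 and 0.27. The Bcl2l11 call was lost without KO Th22 replicate 2, WT Th17 replicate 1 or WT Th22 replicate 2 (up to 0.072), and the Bcl2 call was kept without KO Th17 replicate 2 or either KO Th22 library (up to 0.10 in the others). In cluster 0 Bcl2a1b alone passed, with 0.98 ± 0.16 (edgeR adjusted p = 0.027), where 1.23% of genes did. It was kept without KO Th17 replicate 2, KO Th22 replicate 1 or WT Th17 replicate 2 (up to 0.14 in the others), and was lost with summed libraries (0.47). In cluster 4 Bcl2l11 alone passed, with -1.19 ± 0.27 (edgeR adjusted p = 0.039), where 0.818% of genes did. It was kept without KO Th22 replicate 1, WT Th17 replicate 1 or WT Th22 replicate 1 (up to 0.17 in the others), and with summed libraries (0.032). No member passed by edgeR in the other 8 clusters, where 0.198% to 0.429% of genes did. In them 21 of 52 member tests had an unadjusted p under 0.05 and all but cluster 3 held fewer cells than cluster 4. The share of all genes at that unadjusted threshold is not given. Bcl2a1b had a positive fold change in all 10 clusters where it was tested, from 0.56 to 1.19, and Bcl2l11 a negative one in all 11, from -1.19 to -0.46. Bcl2 was also lower in all 12 and Bcl2l1 higher in all 10 where it was tested. All clusters come from the same 8 libraries, so signs that agree between clusters are not independent.

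**Figure D4:**
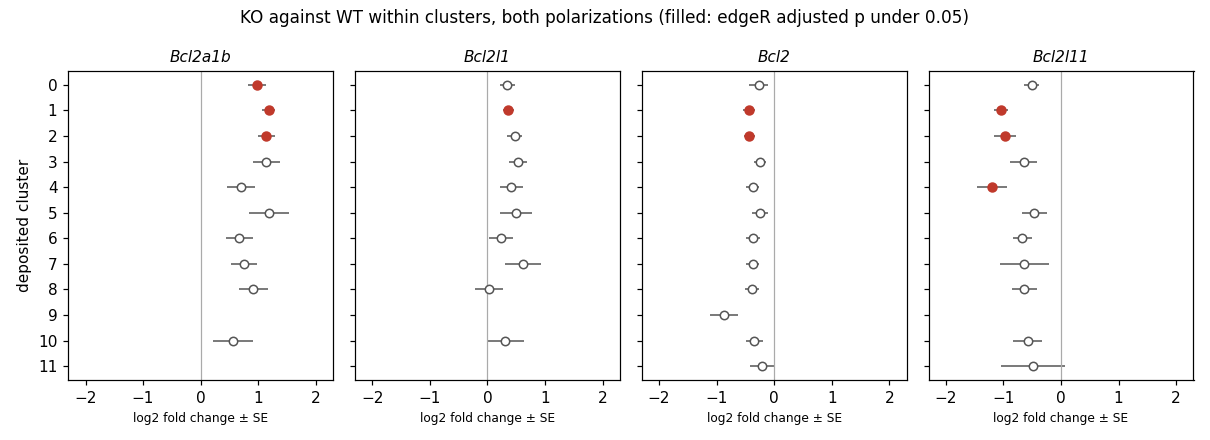
Log2 fold change ± SE of KO over WT within each deposited cluster (both polarizations, edgeR) for Bcl2a1b, Bcl2l1, Bcl2 and Bcl2l11; clusters where a gene missed the count filter have no point. Filled points passed at an adjusted p under 0.05: clusters 0, 1 and 2 for Bcl2a1b, cluster 1 for Bcl2l1, clusters 1 and 2 for Bcl2, and clusters 1, 2 and 4 for Bcl2l11.

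The fold change of Bcl2l11 in cluster 0 was -0.51 ± 0.13 (edgeR adjusted p = 0.11), and the difference between clusters 0 and 1, singled out after their values were seen, was not tested. The log2 ratio of Bcl2l11 in cluster 1 over cluster 0 was -2.15 and -2.03 in KO Th17, -1.40 and -1.45 in KO Th22, -1.53 and -1.24 in WT Th17, and -1.08 and -1.20 in WT Th22. KO was below WT within each culture, by 0.49 on average.

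Between Th22 and Th17 the within-cluster calls were of Bcl2l1. It fell by 0.69 ± 0.13 in cluster 0 (edgeR adjusted p = 0.04996), by 0.62 ± 0.09 in cluster 1 (0.0025) and by 0.63 ± 0.13 in cluster 2 (0.016). These clusters had 0.701%, 3.07% and 2.26% of genes called. The call in cluster 0 lies at the threshold, was at 0.067 with the replicate number as a block, and was kept in 1 of 8 fits that left out a library, that without KO Th17 replicate 2 (up to 0.19 in the others). The call in cluster 1 was kept in 8 of 8. That in cluster 2 was lost without KO Th17 replicate 2, WT Th17 replicate 1 or either WT Th22 library (up to 0.093). Bcl2l1 had a negative fold change in all 10 clusters where it was tested, from -0.81 to -0.18, and Bcl2a1b was also lower in all 10 of its clusters. The signs in the tested clusters are not independent, because all clusters come from the same libraries.

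The genes whose level ran most like a member over the 12 clusters were named by Pearson's r of mean log2 CPM among 6174 genes, as a description. Bcl2a1b was most like Rgs16 (r = 0.92), a regulator of G protein signalling, then Slirp and Wdr61. Bcl2l11 was most like Crebrf (0.95), Mat2b and Irf2, and Bax most like Eif2d (0.96), Rbck1 and Dcxr, of which Dcxr was also a leading gene of cluster 6. For Bcl2 these included Sdcbp (0.95) and Sipa1, for Bcl2l1 Mfhas1 (0.94), Napa and Bicdl1, for Mcl1 Klhdc1 (0.96), Tigd2 and Scml4, for Bcl2a1d Arf5 (0.90), Pet100 and Ahsa2, and for Bbc3 Ramac (0.88), Tnfsf8 and N4bp1. The clusters share their 8 libraries and differ in depth.

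Other genes of the death machinery were compared between KO and WT over both polarizations as lists. Of all 13412 genes, 2.93% passed in this comparison and 2597 had an unadjusted p under 0.05. Of 11 tested members of the other BCL2 family, which holds further guardians, effectors and BH3-only genes, none passed in either direction by edgeR or DESeq2, with 1 at an unadjusted p under 0.05, Bad (0.20 ± 0.09, edgeR adjusted p = 0.24). Their median log2 fold change was 0.11, against 0.00 over all genes. Of 14 apoptosome and caspase genes, 5 caspase inhibitors and 7 death receptor genes none passed, with 2, 0 and 1 at an unadjusted p under 0.05 and 1, 0 and 0 called by DESeq2. Their medians were 0.06, -0.10 and 0.06.

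Of all genes 2.93% passed between KO and WT over both polarizations, and 2597 of 13412 had an unadjusted p under 0.05. Of the lists on upstream regulators, 1 of 12 p53 genes passed (5 at an unadjusted p under 0.05, 2 by DESeq2), Phlda3, a p53 target that restrains AKT, with 0.31 ± 0.07 (edgeR adjusted p = 0.044). Of 13 common gamma chain and STAT5 genes 1 passed (4 unadjusted, 2 by DESeq2): Pim2, a survival kinase, fell by 0.57 ± 0.13 (edgeR adjusted p = 0.048), with 25.1 and 32.5 CPM in KO Th17 against 40.9 and 39.7 in WT Th17, and 21.3 and 30.3 CPM in KO Th22 against 41.9 and 39.7 in WT Th22. Of 8 FOXO factors and targets 1 passed (4 unadjusted, 2 by DESeq2): Klf2, a factor of quiescent T cells, fell by 0.80 ± 0.16 (edgeR adjusted p = 0.040), with 21.8 and 27.6 CPM in KO Th17 against 61.7 and 51.7 in WT Th17, and 48.6 and 47.1 CPM in KO Th22 against 64.9 and 61.6 in WT Th22. Within Th17 Klf2 fell by 1.20 ± 0.14 (edgeR adjusted p = 0.037). Within Th22 the Klf2 difference was -0.40 ± 0.14 (edgeR adjusted p = 0.33), and the interaction, 0.80 ± 0.20, did not pass (edgeR adjusted p = 0.90). None of 14 NF-kB, 8 ATF4 and CHOP or 4 MCL1 turnover genes passed, with 4, 3 and 1 at an unadjusted p under 0.05 and 1, 0 and 0 called by DESeq2. The medians of these 6 lists were 0.11, -0.16, -0.31, 0.04, 0.27 and 0.00 in this order.

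Between Th22 and Th17 over both genotypes 1.94% of all genes passed, and 1945 of 13412 had an unadjusted p under 0.05. Of 14 NF-kB genes 2 fell (7 at an unadjusted p under 0.05, 4 by DESeq2): the subunit genes Nfkb2 (-0.58 ± 0.08, edgeR adjusted p = 0.0095) and Rel (-0.47 ± 0.08, edgeR adjusted p = 0.028). Nfkb2 had 48.0 and 47.1 CPM in KO Th17 against 29.9 and 30.6 in KO Th22, and 39.4 and 32.6 in WT Th17 against 25.1 and 25.3 in WT Th22. Bcl2l1 and the A1 genes are known NF-kB targets. A link of their levels to those of Nfkb2 and Rel was not tested, and the A1 pair did not pass in the unblocked edgeR fit. Of 13 common gamma chain and STAT5 genes 1 passed (5 unadjusted, 1 by DESeq2): Stat5a fell by 0.40 ± 0.06 (edgeR adjusted p = 0.018). Of 8 ATF4 and CHOP genes 1 passed (6 unadjusted, 6 by DESeq2): the stress factor Atf3 fell by 0.97 ± 0.13 (edgeR adjusted p = 0.0083). Of 8 FOXO genes 1 passed (3 unadjusted, 2 by DESeq2): Txnip, a FOXO target, rose by 0.48 ± 0.10 (edgeR adjusted p = 0.049). The medians of the NF-kB, STAT5, ATF4 and FOXO lists were -0.27, -0.06, -0.44 and 0.28, against 0.00 over all genes. None of the other BCL2 family passed, with 4 of 11 at an unadjusted p under 0.05, among them the BH3-only gene Bmf (0.74 ± 0.20, edgeR adjusted p = 0.12), and 0 called by DESeq2. In the p53, caspase, caspase inhibitor, death receptor and MCL1 turnover lists none passed by edgeR. Of these, 2 of the p53 genes and none of the others had an unadjusted p under 0.05, and DESeq2 called 1, in the p53 list. Their medians were 0.07, 0.08, 0.01, 0.00 and -0.03.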

How the data were processed

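Single-cell libraries were made with the 10x 3' v3 kit, per the labels' protocols. The submitters' processing notes name Cell Ranger 5.0.1, Seurat and the build mm10. The deposited matrix holds UMI counts of 16649 genes in 104660 cells, and the authors' deposited cell table gives the mitochondrial percent and the cluster of each cell. Cells with at least 500 genes and at most 10% mitochondrial reads were kept (101688). Doublets were not called; leaving out the 8% of cells with most UMIs was an alternative. Counts were summed per library and tested with edgeR 4.0.16 (TMM, quasi-likelihood F test, Benjamini-Hochberg threshold 0.05, 13412 genes). Group means were fitted for comparisons within a culture or genotype, and an additive model for those over both. DESeq2 1.42.0 was an alternative. Clusters were fitted separately. Shares used cells thinned to 1500 UMIs (93046). In 6339 genes, deviations of same-numbered libraries correlated at r = 0.88 between the KO cultures and 0.64 between the WT cultures. Between a KO and a WT culture they correlated at -0.46 to -0.56, so KO replicate 1 deviated like WT replicate 2. These pairings come from the data, not from the labels. The edgeR fit was tested on simulated counts.

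Named genes were all members, up to 3 called genes per pathway list with the smallest adjusted p, and the 3 genes most like each member over the clusters; 1 gene that this rule takes is not reported here. The members and lists were chosen with earlier results of these data known. Each library left out in turn, other scalings, filters, cell sets and blocks were the alternatives.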

Additional observations from a re-analysis of the deposited data

How the results depend on the processing

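Over both polarizations the count of members called between KO and WT was 3. It was 1 with a mean of at least 5 CPM, a filter that left Bcl2a1d untested (means of 3.51 CPM in KO and 1.38 in WT). It was 1 with cells thinned, 0 with libraries of 1 genotype and number summed, and 1 to 4 when 1 library was left out. Without clusters 7, 9 and 11, the first of them led by gamma-delta receptor genes, it was 2. Within Th17 (0) DESeq2 called 2, and fits without a library 0 to 1. Within Th22 (0) DESeq2 called 2. Between Th22 and Th17 DESeq2 called 1 in WT, 1 in KO and 2 over both genotypes; library totals without TMM called 1 in KO; the fit of only the libraries compared called 1 in WT; and the replicate block of genotype and number called 3, 5 and 4. Crossed pairing, chosen after seeing the data, took KO replicate 1 with WT replicate 2 and KO replicate 2 with WT replicate 1 as blocks. It called 4 (Th17), 3 (Th22) and 5 (both) between KO and WT. The share of all genes that each alternative called is not given here, so these counts are not read as results about the members. With the replicate block by number alone the KO against WT call of Bcl2l1 was lost and no other call of a member over all cells changed; within clusters the calls of Mcl1 in cluster 1 (KO against WT) and Bcl2l1 in cluster 0 (Th22 against Th17) were lost, leaving 10 and 2. Without a filter on low counts the member-by-cluster calls were 17 instead of 11 between KO and WT and 8 instead of 3 between Th22 and Th17; leaving out a library gave 4 to 15 and 1 to 3. Summed libraries, chosen after seeing the data, gave 5 between KO and WT. Between Th22 and Th17 Bax turned to -0.067 with library totals and ranged from -0.016 to 0.061 without a library, and Bbc3 from -0.20 to 0.058 without a library. The cause of these changes was not tested. The call of Bcl2a1d between KO and WT was lost with thinned cells, at an adjusted p of 0.073, and with summed libraries, at 0.16. Members with few UMIs per cluster, Bcl2a1d above all, limit what the smaller clusters can show.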

Other observations

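The balance between BCL2 and BIM transcripts separated the KO replicates more than the genotypes. The number of Bcl2 UMIs per Bcl2l11 UMI was 4.76 and 9.14 in KO Th17 and 4.88 and 12.7 in KO Th22 (replicates 1 and 2), against 5.89 and 5.03 in WT Th17 and 6.67 and 5.41 in WT Th22. In both cultures KO replicate 1 was below the 2 WT libraries and KO replicate 2 above them. For Mcl1 UMIs per Bcl2l11 UMI Th17 cultures had 4.57 and 6.37 in KO against 4.28 and 3.799 in WT. Th22 cultures had 6.68 and 10.1 in KO against 5.43 and 4.89 in WT. Each KO value was above both WT values of its culture. These ratios were not tested.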
